A study of Rattus norvegicus with 4 samples.

Results

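The nuclear-encoded subunits of oxidative phosphorylation were followed in rat kidney allografts as 86 genes, out of 14871 genes named on the array. A gene was included where its annotated symbol starts with Nduf, Uqcr, Cox4 to Cox8 or Atp5, or is Sdha, Sdhb, Sdhc or Sdhd. These genes are read by 139 of the 45220 array features, a feature being 1 printed probe. Features of 1 gene were averaged on each array. Complex I is represented by 33 subunits, complex II by 4, complex III by 8, complex IV by 16 and complex V by 17. A further 7 genes are complex I assembly factors of the Ndufaf series, and Atp5if1 encodes the inhibitor of complex V. Ndufa4 is counted with complex IV, to which its protein is assigned today. Cyc1, the cytochrome c1 of complex III, is outside the symbol rule and is described with the electron carriers.

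Every graft came from a rat of the strain Lew that had received an allogeneic kidney, and all recipients were given 1 of 2 peptides into a vein each day from the day of transplantation. The treated recipients received an ApoE-mimetic peptide, a peptide that imitates apolipoprotein E, at 6 mg/kg, and the others received a control peptide. Grafts were removed on day 4, and total RNA from frozen slices of whole graft was labelled for two-colour Agilent arrays. Each of the 4 arrays held 1 treated and 1 control sample, with the ApoE sample in Cy5 on replicates 1 and 3 and in Cy3 on replicates 2 and 4. The donor strain, the sex and age of the rats, and any pooling of grafts are not stated in the labels. Both groups were transplanted, so none of the values below compares a graft with a normal kidney.

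Oxidative phosphorylation takes place in the inner mitochondrial membrane. Complex I accepts electrons from NADH and complex II from succinate, complex III passes them to cytochrome c, complex IV hands them to oxygen, and complex V uses the proton gradient built by complexes I, III and IV to make ATP. Most subunits are encoded in the nucleus, and in the kidney the pathway is most heavily used by the mitochondria-rich tubule cells that reabsorb sodium.

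Nuclear control of these genes runs in part through short promoter elements that the factors NRF1, GABPA, the estrogen-related receptors (ERR) and YY1 are known to bind. RefSeq promoter windows of the GRCr8 assembly, from 250 bases before to 50 bases after the annotated start, were matched to 75 of the 86 genes. For each complex the window with the most kinds of element is shown, the first by symbol where several tie. The windows shown are therefore not typical of the subunits. They are printed 5′ to 3′ on the strand of the gene, with matches in capitals. The letters searched on both strands were GCATGCG for NRF1, CCGGAAG for GABPA, AAGGTCA for ERR and AAGATGG for YY1, and no match overlapped a match of a different factor. The windows are those of Ndufa6 (chr7:115750268-115750567, minus strand), Sdhb (chr5:158547684-158547983, plus strand), Uqcrc1 (chr8:118467973-118468272, plus strand), Cox8a (chr1:213833574-213833873, minus strand) and Atp5me (chr14:1464610-1464909, plus strand).
Ndufa6: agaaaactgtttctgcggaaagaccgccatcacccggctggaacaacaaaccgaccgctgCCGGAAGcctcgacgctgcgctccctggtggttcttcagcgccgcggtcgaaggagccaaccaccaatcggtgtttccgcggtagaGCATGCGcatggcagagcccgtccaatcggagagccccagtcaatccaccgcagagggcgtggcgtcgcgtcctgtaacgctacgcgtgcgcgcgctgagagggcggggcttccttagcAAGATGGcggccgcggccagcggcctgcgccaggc
Sdhb: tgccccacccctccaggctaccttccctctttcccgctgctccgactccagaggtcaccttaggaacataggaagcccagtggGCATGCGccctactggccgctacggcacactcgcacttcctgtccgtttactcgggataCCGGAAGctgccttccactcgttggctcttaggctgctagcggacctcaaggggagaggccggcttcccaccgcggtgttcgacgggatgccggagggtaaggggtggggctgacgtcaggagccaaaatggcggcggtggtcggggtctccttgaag
Uqcrc1: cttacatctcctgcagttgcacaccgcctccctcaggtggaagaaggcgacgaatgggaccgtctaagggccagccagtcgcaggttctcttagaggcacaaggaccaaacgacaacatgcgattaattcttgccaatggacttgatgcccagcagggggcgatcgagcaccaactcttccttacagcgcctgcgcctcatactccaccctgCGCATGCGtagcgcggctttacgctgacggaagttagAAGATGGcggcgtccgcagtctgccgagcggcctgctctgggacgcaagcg
Cox8a: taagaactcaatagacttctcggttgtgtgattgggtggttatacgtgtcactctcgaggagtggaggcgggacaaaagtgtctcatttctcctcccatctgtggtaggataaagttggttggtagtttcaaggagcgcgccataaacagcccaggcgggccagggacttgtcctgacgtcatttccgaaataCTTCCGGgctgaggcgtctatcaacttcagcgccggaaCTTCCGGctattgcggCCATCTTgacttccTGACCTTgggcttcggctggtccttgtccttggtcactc
Atp5me: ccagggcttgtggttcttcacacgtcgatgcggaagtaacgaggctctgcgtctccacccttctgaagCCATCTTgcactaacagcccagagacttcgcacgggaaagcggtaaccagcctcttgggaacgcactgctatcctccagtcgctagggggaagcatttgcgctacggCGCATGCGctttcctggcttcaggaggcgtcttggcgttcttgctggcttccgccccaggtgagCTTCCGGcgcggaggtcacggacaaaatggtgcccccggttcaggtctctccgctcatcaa
In the Uqcrc1 and Atp5me windows the run of 8 capitals is the NRF1 element read on both strands, and in the last pair of windows the capitals CTTCCGG mark the GABPA letters on the opposite strand, CCATCTT those of YY1 and, in Cox8a, TGACCTT those of ERR.

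Each of the 4 elements was more frequent in the subunit promoters than in all 33469 promoter windows of the table. Those windows were not matched to the subunits for kind of gene or base composition. The GABPA letters were present in 21 of the 75 windows (28.0%), against 8.75% of all windows. The YY1 letters were present in 15 (20%, against 7.01%), the NRF1 letters in 13 (17.3%, against 3.33%) and the ERR letters in 11 (14.7%, against 4.61%). At least 3 kinds of element were found in 5 of the 75 windows, and in 0.0926% of all windows. None of the 4 was found in 33 windows (44.0%, against 78.6%). These are matches of letters only, and the arrays hold no measurement of binding.

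The deposited values are log ratios of the channels of an array, with the log base and the direction of the ratio unstated. They were taken as log2 ratios throughout, which is an assumption. The ratios were read as Cy5 over Cy3, so that replicates 2 and 4 were turned to give ApoE over control, and the alternative, that the columns had already been turned, is given beside the main results. Over all features the array medians were -0.17, -0.04, -0.10 and -0.58 on replicates 1 to 4. Replicate 4 stood apart, with an SD over features of 1.26 against 0.87 to 0.89 on the others, and with a gradient across the grid, from a median of -0.80 in the first 10 columns to 0.40 in the last 10. Replicates 1 and 3, which carry the same dye orientation, were correlated at r = -0.24 over all features and at r = -0.66 over those described next as usable, so they oppose each other under either reading if the dye labels are right. Replicates 2 and 4 were correlated at r = -0.09 and r = -0.04.

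Many features hold a ratio that cannot be ordered. A feature was called dim where more than 2 features of an array held exactly its value, and saturated where it held the value next to 0 that 104 to 230 features of an array share, and the remainder were called usable. Only ratios were read, so both names rest on shared values, and low or saturating signal was inferred from them without intensities. Of the 139 subunit features, 82 were usable, 48 were dim and 9 were at the shared value on at least 1 array, while over the whole array 13363 features were usable, 31597 dim and 247 at the shared value. At the level of genes, 68 of the 86 had a usable feature, 9 had dim features only and 9 rested on a saturated feature. All 4 subunits of complex II had a usable feature, as did 28 of 33 in complex I, 7 of 8 in complex III, 9 of 16 in complex IV, 13 of 17 in complex V and 6 of the 7 Ndufaf genes. Features designed on RefSeq mRNAs were usable in 73 of 92 cases (79.3%), and features on other accessions in 9 of 47 (19.1%). The corresponding shares over all annotated features were 42.7% and 12.8%.

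**Figure D1:**
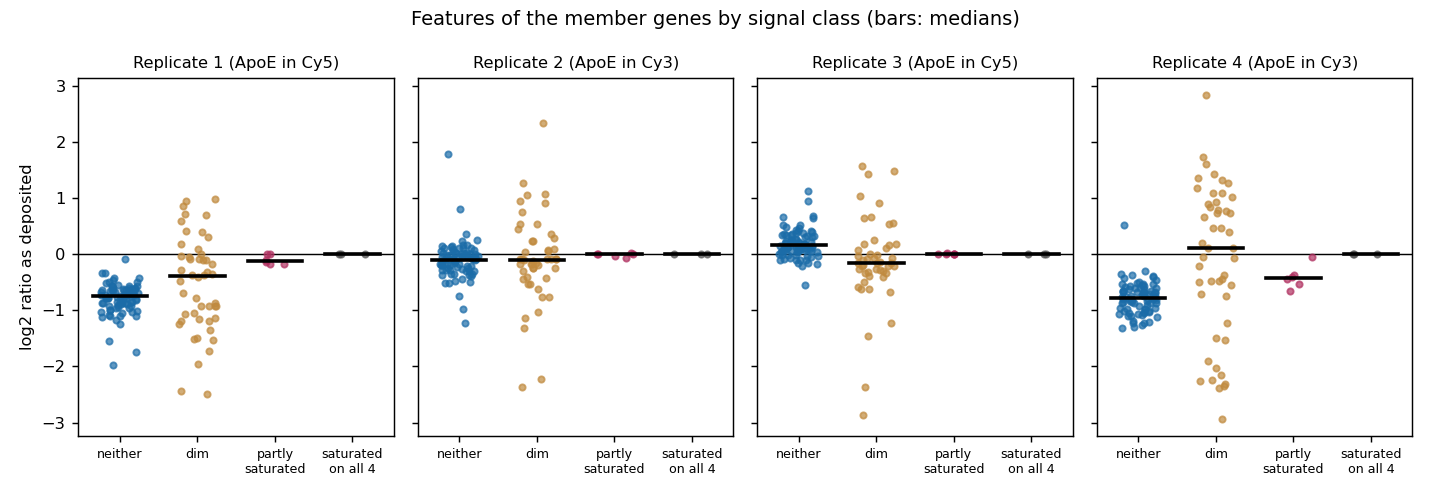
The 139 features of the subunit genes are plotted by signal class on each replicate, with the deposited log2 ratio on the vertical axis and bars at the medians. Usable features lie close together on every array, with medians of -0.75, -0.10, 0.16 and -0.79, while dim features scatter widely and saturated ones lie at 0.

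Saturation touched subunits of complexes I, III, IV and V. Cox6a1, a small subunit of complex IV, and the complex V subunits Atp5f1e (epsilon) and Atp5me (subunit e) were at the shared value on all 4 arrays, so their only ratio is the one that saturation leaves. The feature of Ndufb8, in the membrane arm of complex I, was at the shared value on 3 arrays, that of Cox6c on replicates 2 and 3, and that of Atp5pb, the peripheral stalk subunit b, on replicates 1 and 3. Atp5po, the stalk subunit OSCP, and Ndufb4 were there on replicate 3 and Uqcr10 on replicate 2. Where these 6 partly saturated features had another value, their medians on replicates 1 to 4 were -0.16, -0.03, 0.03 and -0.42. The medians rest on 4, 3, 1 and 6 features, and each was nearer to 0 than the usable median of its array. The ratios of these genes are not compared singly with those of other subunits, but they are included in counts over all subunit genes and in medians over all features. Cox6a1, Atp5f1e and Atp5me, with a ratio next to 0 on all 4 arrays, could not have passed a test.

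Many markers of the labelled tissue had usable features, which 6731 of all 14871 genes had. Usable features were found for 12 of 14 measured proximal tubule genes, 4 of 6 collecting duct genes, 9 of 12 T cell genes and 6 of 8 monocyte and macrophage genes. For the thick ascending limb and distal tubule it was 4 of 7, for podocytes 2 of 4 and for endothelium 3 of 5. Adipocyte markers, with 2 of 4, were as often usable as those of podocytes, and erythroid markers had 1 of 3. For skeletal muscle it was 0 of 7 and for heart muscle 0 of 4. Among the isoforms of complex IV, the widely expressed Cox4i1, Cox7a2 and Cox8a and the lung isoform Cox4i2 had usable features, and the widely expressed Cox6a1 was saturated, whereas the heart and muscle isoforms Cox6a2 and Cox8b and the testis isoforms Cox6b2 and Cox8c had dim features only. Dim features were also all that represented Cox7c, Ndufs4, Ndufb10, Ndufc1 and the assembly factor Ndufaf2.

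No subunit passed the test for a difference between the peptides. In limma, with p-values adjusted by the Benjamini-Hochberg method over all 14871 genes, 0 of 86 subunit genes had an adjusted p under 0.05 in the treatment coefficient, where 0.0% of all genes did, and 0 had an unadjusted p under 0.05, where 2.58% of all genes did. With the columns taken as already turned the counts were again 0 and 0, against 0.0% and 3.27% of all genes. The smallest unadjusted p of the 86 was 0.165, for Ndufs4, with an adjusted p of 1.00 in limma. The median treatment coefficient was 0.03 over the 86 genes and 0.04 over all genes. In whole grafts, fewer cells of a type and less RNA per cell cannot be told apart, and the p-values measure the spread between these arrays only, whose number of 4 limits the precision.

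With dim and saturated features left out the ratios of the subunits were closely grouped around 0. Over the 68 genes with a usable feature the treatment coefficients ran from -0.16 to 0.37 with a median of 0.05 and an SD of 0.12, while over all 6731 genes with a usable feature the median was 0.04 and the SD 0.24. None of the 68 had an adjusted p under 0.05 in limma, against 0.0% of the 6731. A narrow group of estimates is not a narrow limit on each, since the 95% intervals of the 68 genes had median bounds of -0.60 and 0.77, and the outermost bounds were -1.40 and 1.29. With the columns taken as already turned, all 68 coefficients were below 0, with a median of -0.38. The array offsets are included in these values, and over all 6731 genes the median was -0.33 and 627 were above 0.

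**Figure D2:**
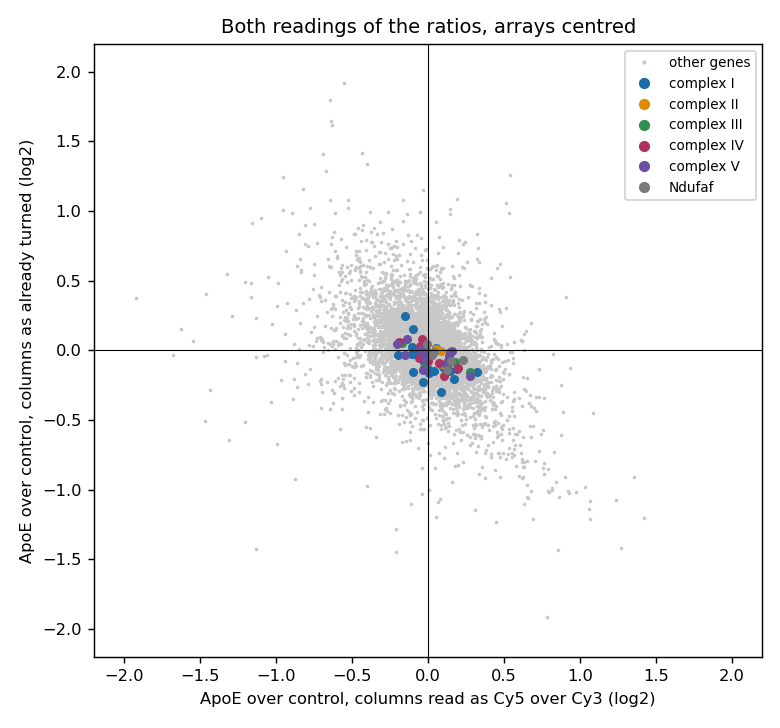
Each point is a gene, with the ApoE over control log2 ratio read as Cy5 over Cy3 on the horizontal axis and with the columns as already turned on the vertical axis, with each array centred. The subunit genes lie near 0 on both axes within the cloud of all genes, and 1 gene lies beyond the limits of 2.2.

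What the subunits shared was their position on single arrays. To set aside the array offsets, each ratio was taken relative to the median of the 6731 genes with a usable feature on that array, in the direction in which it was deposited. The medians of these relative ratios over the 68 genes were -0.32, -0.01, 0.32 and -0.12 on replicates 1 to 4. The SDs over the 68 genes were 0.26, 0.28, 0.24 and 0.26, against 0.68, 0.71, 0.66 and 0.58 over all 6731 genes. On replicate 1 67 of the 68 genes (98.5%) lay below the median gene, where 50% of all genes do by construction, and on replicate 3 only 4 (5.88%) lay below it. On replicate 2 35 genes (51.5%) and on replicate 4 48 genes (70.6%) were below. The combination of below on replicate 1 and above on replicate 3 was met by 64 genes (94.1%), and by 35.1% of all genes.

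Replicates 1 and 3 share 1 labelled dye orientation, so with the labels taken as given the relative ratio of ApoE to control lay on opposite sides on them under either reading. The dye labels themselves were not tested, and if 1 of these arrays had the other orientation its subunits would lie on the same side as those of the other. After turning, the median of the relative ratios averaged 0.03 ± 0.26 (SD, n = 4 arrays) for ApoE over control, and as deposited it averaged -0.03 ± 0.26 (SD, n = 4 arrays). Neither average exceeded the spread between arrays. Over all features, including dim and saturated ones, 6 of the 86 genes kept 1 sign on all 4 arrays after turning (6.98%, against 10% of all genes), and 9 did so as deposited (10.5%, against 11.4%). Here the centre was the median of all genes, which was negative on every array. The count as deposited therefore includes saturated genes such as Atp5f1e and Atp5me, whose ratio next to 0 lies above each of those medians by construction.

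**Figure D3:**
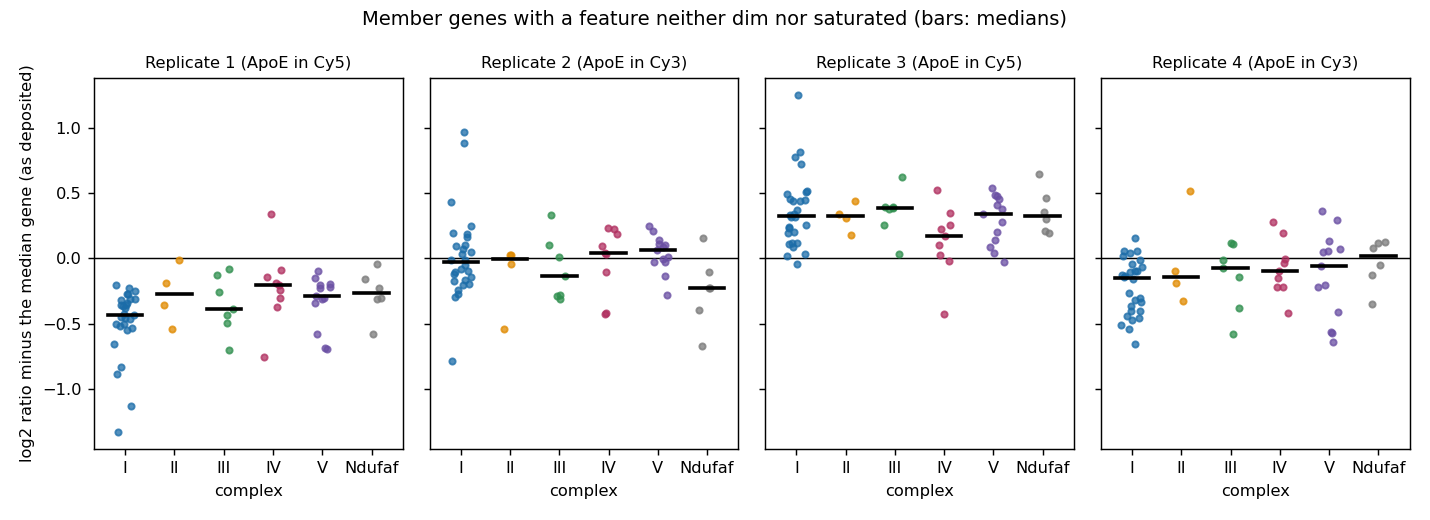
Points are the 68 genes with a usable feature, by complex, on each replicate, with the log2 ratio minus that of the median gene on the vertical axis, as deposited, and bars at the medians. All complexes lie below 0 on replicate 1 and above 0 on replicate 3, with medians from -0.43 to -0.20 and from 0.17 to 0.38.

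The deviations were small beside those of other genes. Within 0.5 log2 units of the median gene on all 4 arrays were 42 of the 68 genes (61.8%), and 42.6% of all genes. Only Ndufv3 and Ndufa7, or 2.94% of the 68, lay more than 1 unit away on at least 1 array, where 21.3% of all genes did. On replicates 1 and 3 the subunits stood off the median gene by a small shift in nearly all of them, not by a few large values.

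Complex I followed this order in nearly every subunit. Its 28 usable subunits had relative medians of -0.43, -0.03, 0.32 and -0.15 on replicates 1 to 4, with all 28 below the median gene on replicate 1 and 1, Ndufa5, below it on replicate 3. Ndufv3, an accessory subunit at the NADH-oxidising tip, had deposited log2 ratios of -1.55, 0.80, 1.12 and -1.02. Ndufa7, of the matrix arm, had -1.75, 0.35, 0.69 and -1.19. Both were low on replicates 1 and 4 and high on replicates 2 and 3, the widest swing among the subunits with a usable feature, and their treatment coefficients were -0.05 and -0.06.

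The complex I subunits with the smallest p-values owed their ratios to dim features. Ndufs4, an accessory subunit of the NADH-oxidising module, had a treatment coefficient of -1.06 (SE 0.65) from 1 dim feature, with deposited ratios of -2.44, 2.33, -0.19 and -0.71. Ndufb10, of the membrane arm, had -0.57 (SE 0.39), again from dim features. For Ndufb5, also of the membrane arm, the coefficient was -0.53 (SE 0.39) over both of its features and 0.05 with the usable feature alone. In the same way Ndufs3, a core subunit of the matrix arm, went from 0.51 (SE 0.37) to 0.02. Its usable feature read -1.08, -0.04, 0.31 and -0.79, and its dim feature read -0.31, -2.37, 1.43 and -0.55. In Ndufb5 and Ndufs3 the features of 1 gene thus disagreed by more than the coefficient.

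Complex II, the succinate dehydrogenase that also serves the tricarboxylic acid cycle, showed the same dependence. With usable features its 4 genes had relative medians of -0.27, -0.01, 0.32 and -0.14. Over all features the median on replicate 4 was 0.69 instead, because of dim features of Sdha and Sdhd that read 2.84 and 1.31 there. The usable feature of Sdha, the flavoprotein that oxidises succinate, read -0.77, -0.12, 0.21 and -0.98, and its treatment coefficient moved from -0.44 (SE 0.34) over both features to 0.13 with this one. Sdhb, the iron-sulfur subunit, is read by 1 usable feature and had -0.43, -0.05, 0.05 and -0.84. The membrane anchor Sdhd had -0.60, -0.05, 0.18 and -0.75 on its usable feature. Relative to the median gene these 3 genes were highest on replicate 3, while the lowest array was replicate 1 for Sdha (-0.35) and Sdhd (-0.19) and replicate 4 for Sdhb (-0.19). Sdhc, the other anchor, had -0.96, -0.62, 0.31 and -0.14 over its usable features, whose values on replicate 4 were 0.53 and -0.80.

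In complex III, which oxidises ubiquinol, the 7 usable subunits had relative medians of -0.39, -0.14, 0.38 and -0.08, and all 7 were below the median gene on replicate 1 and above it on replicate 3. Uqcrc1, 1 of the pair of large core proteins, had deposited ratios of -0.55, -0.36, 0.25 and -1.23 on its usable feature and a treatment coefficient of 0.38 (SE 0.31) over all its features, with an unadjusted p of 0.272 in limma. Uqcrc2, the other core protein, had -0.86, -0.21, 0.49 and -1.03. Relative to the median gene, both core proteins were below it on replicates 1, 2 and 4 and above it on replicate 3. Of the small subunits, Uqcrq had -1.12, -0.39, 0.26 and -0.54, Uqcrb had -0.81, -0.07, 0.27 and -0.73, and Uqcr11 had -0.92, 0.26, 0.12 and -0.53. Relative to the median gene all 5 were below it on replicate 1 and above it on replicate 3, whereas on replicate 4 Uqcrq (0.11) and Uqcr11 (0.12) were above it and the other 3 below.

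Complex IV stood closest to the median gene on replicates 1 and 3, while on replicates 2 and 4 other complexes stood closer. Its 9 usable subunits had relative medians of -0.20, 0.04, 0.17 and -0.10, and 8 of the 9 lay within 0.5 log2 units of the median gene on all 4 arrays. The ubiquitous Cox4i1, the nuclear subunit that binds ATP, had deposited ratios of -0.56, 0.02, -0.03 and -1.07. Cox4i2, its lung isoform, which is known to be induced by low oxygen, had -0.66, 0.14, -0.15 and -0.37, on a feature whose value was held by 2 features on replicates 1 and 4, the most allowed for a usable one. The isoforms lay nearer to each other on replicates 1 to 3 than on replicate 4.

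Of the other complex IV subunits with usable features, Cox5a had -0.61, -0.50, -0.10 and -0.80 and Cox7b had -0.62, -0.50, 0.21 and -0.87, while Cox7a2 had -0.72, 0.11, 0.13 and -0.66. Cox8a, whose promoter window holds 3 kinds of element, had -0.51, -0.04, 0.04 and -0.46. For Ndufa4 the usable feature read -1.17, 0.16, 0.39 and -0.87, and the treatment coefficient moved from -0.25 (SE 0.30) over 4 features to -0.02 with that feature. Cox7a2l, which joins complexes III and IV into supercomplexes, was the exception. Its usable feature read -0.08, -0.04, -0.56 and -0.75, above the median gene on replicate 1 and below it on replicate 3, the reverse of the other subunits. Only Cox4i2, Ndufa5 and Atp5f1d shared its position below the median gene on replicate 3.

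Among the isoforms read by dim features only, treatment coefficients were -0.29 (SE 0.35) for Cox8c and 0.21 (SE 0.29) for Cox6a2. Those of Cox6b2 and Cox8b were -0.11 and -0.10. None had an unadjusted p under 0.05, and no order of these isoforms against the ubiquitous ones is given, since dim ratios have none.

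Complex V, the ATP synthase, had 13 usable subunits with relative medians of -0.29, 0.06, 0.34 and -0.06. The catalytic head was read by Atp5f1a (alpha), with deposited ratios of -0.64, 0.17, 0.41 and -1.22, Atp5f1b (beta), with -0.65, 0.06, 0.15 and -1.22, and Atp5f1c (gamma), with -0.73, -0.36, 0.36 and -1.29. Alpha and beta, which alternate in the head, were in the same order over the arrays, as was gamma. The c-ring is encoded by 3 genes whose mature proteins are identical. Atp5mc1 had -1.11, -0.09, 0.21 and -0.85, Atp5mc2 had -0.52, -0.07, -0.04 and -0.60, and Atp5mc3 had -0.61, 0.03, 0.32 and -1.07. On these usable features their treatment coefficients were 0.01, 0.03 and 0.19, and that of Atp5mc3 was 0.04 with its dim feature included. Relative to the median gene, Atp5mc1 stood at -0.69 on replicate 1, against -0.10 for Atp5mc2 and -0.20 for Atp5mc3.

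The small membrane subunits Atp5mk and Atp5mpl had usable ratios of -0.62, -0.21, 0.28 and -0.87, and of -1.11, 0.13, 0.25 and -0.36. Their treatment coefficients over all features were 0.18 (SE 0.32) and -0.19. The inhibitor Atp5if1, which binds the synthase when the proton gradient fails, had -0.42, -0.07, -0.04 and -0.40 and a coefficient of 0.00. Relative to the median gene it stood at -0.01, 0.01, 0.09 and 0.25, so it lacked the shift of most subunits on replicate 1. This did not set it apart from every subunit, since Sdhb also stood at -0.01 on that array. The 6 usable Ndufaf assembly factors had relative medians of -0.26, -0.23, 0.33 and 0.01.

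Where a gene had more than 1 usable feature, the features could be set against each other. For these 11 genes the range between features, averaged over the arrays, had a median of 0.29 log2 units, from 0.13 for Ndufs8 to 0.77 for Ndufa11. This range is about as large as the shift of the subunits on replicates 1 and 3. In addition, 13 of the 86 genes have a copy in RefSeq by name only, a symbol made of theirs, the letter l and a digit. The symbols Ndufs6-ps1 and Ndufa10l1 are themselves written as a pseudogene and a copy. The ratios of these genes may be shared with another locus, but sequences were not compared.

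Genes around the pathway were compared by lists. Over 5 lists with 72 measured genes, 0 had an adjusted p under 0.05 in limma under either reading, where 0.0% of all genes did. Cyc1, named after its values were seen, was the single gene of the 72 with an unadjusted p under 0.05 in limma (0.046). Over all genes 2.58% had such a p, so 1 in 72 is no excess. The treatment coefficient of Cyc1 was 0.81 (SE 0.31) on a dim feature. The 12 tricarboxylic acid cycle genes had relative medians of -0.27, -0.02, 0.34 and -0.28, and 4 usable electron carrier genes had -0.51, 0.26, 0.48 and -0.09. Assembly factors outside the Nduf series, 21 usable genes that insert cofactors and build the complexes, had -0.25, -0.05, 0.11 and -0.04, and 6 coenzyme Q synthesis genes had -0.34, 0.10, 0.17 and 0.13. Each of these lists was below the median gene on replicate 1 and above it on replicate 3. The 10 usable genes of the transcription and biogenesis list, which holds regulators of nuclear and mitochondrial transcription, had 0.12, -0.04, 0.12 and -0.01, above the median gene on replicate 1. Subunits encoded in mitochondrial DNA were not analysed here.

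The relative ratios were also set out by promoter element, as a description. The 10 usable genes with NRF1 letters had medians of -0.30, 0.02, 0.25 and -0.09, and the 49 matched genes without them had -0.34, -0.04, 0.34 and -0.14. For the GABPA letters the medians were -0.26, -0.03, 0.24 and -0.10 in 20 genes and -0.36, -0.01, 0.34 and -0.14 in 39. For the ERR letters they were -0.30, 0.03, 0.38 and -0.06 in 9 genes and -0.34, -0.03, 0.32 and -0.15 in 50. For the YY1 letters they were -0.41, 0.01, 0.31 and 0.03 in 10 genes and -0.31, -0.01, 0.33 and -0.15 in 49. With or without each element, the medians were below the median gene on replicate 1 and above it on replicate 3.

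Cell type markers stood further from the median gene than the subunits did on most arrays. The 12 usable proximal tubule genes, markers of mitochondria-rich cells, had relative medians of -1.44, 1.49, 1.56 and -0.53, on the same side as the subunits on replicates 1, 3 and 4. The 4 usable genes of the thick ascending limb and distal tubule, also rich in mitochondria, had -1.09, -0.76, 1.11 and -0.87, on the opposite side from the proximal tubule on replicate 2. The 4 usable collecting duct genes had -2.54, 0.70, 1.73 and -1.35. The 9 usable T cell genes had 0.93, -1.61, -1.34 and -1.33, and the 6 usable monocyte and macrophage genes had 0.82, -0.68, -0.80 and 0.31. On replicate 1 the medians of the tubule lists were thus low and those of the leukocyte lists high in the deposited ratio, and on replicate 3 the reverse. The 2 usable podocyte genes had -1.06, 0.23, 1.37 and -1.41, and the 3 usable endothelial genes had -0.89, 0.63, 0.14 and -1.14. The 2 usable adipocyte genes had -0.35, 0.77, 0.79 and 0.15. The medians of these lists thus lay on the same side as those of the tubule lists on replicates 1 and 3. On replicate 2 the proximal tubule genes were as high as on replicate 3 while the subunits were at the median gene. The part of these cell types in the subunit ratios was not tested.

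**Figure D4:**
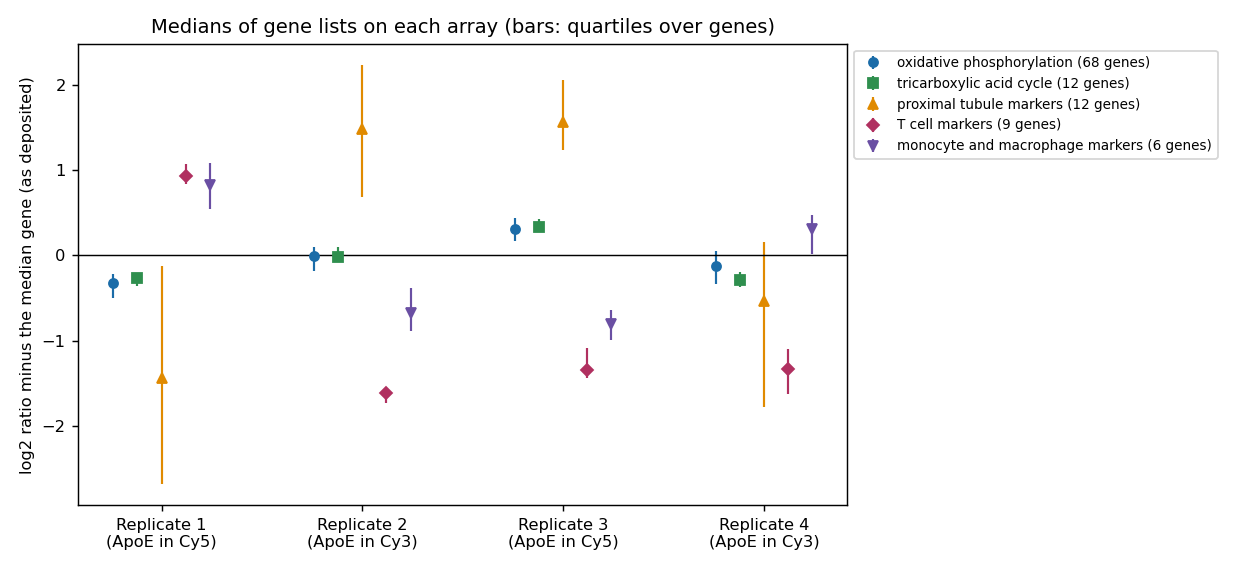
Medians of gene lists are plotted on each replicate as the log2 ratio minus that of the median gene, as deposited, with bars at the quartiles over genes and usable features only. The subunit medians of -0.32, -0.01, 0.32 and -0.12 stay near 0 on an axis where the proximal tubule genes go from -1.44 to 1.56 and the T cell genes from 0.93 to -1.61.

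By the mean absolute difference from the subunit median over the 4 arrays, the closest genes outside the set were Hspe1 and Lcmt2 (0.020 log2 units each), Rars2 (0.025), Nnt and Pex3 (0.031 each), chosen among 6663 genes with a usable feature. The subunits themselves had a median distance of 0.16, from 0.05 for Sdhd to 0.72 for Ndufv3, and the genes outside the set a median of 0.38. Hspe1 encodes the mitochondrial chaperonin cofactor and Nnt the transhydrogenase of the inner membrane.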

How the data were processed

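Two-colour Agilent arrays of 4 treated and control pairs were used. The authors deposited a table of log2 ratios, 1 column per array. Scanner, background correction, normalization, log base and direction: not given in the sources used here, so log2 is an assumption. Symbols came from the platform annotation, which gave 25353 features 1 symbol, 48 several and left 19819 unnamed. The members, lists and marker genes were chosen with earlier results of these data known.

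Ratios were averaged over a gene's features and fitted over all genes with lmFit and eBayes (limma 3.58.1, R 4.3.3). The treatment coefficient followed the labelled orientation of the dyes, and a dye coefficient was added, which is the treatment effect if the columns had already been turned. Tests were two-sided, with Benjamini-Hochberg adjustment and a threshold of 0.05. The fit was uncentred and was tested on simulated data. SEs rest on the spread between arrays of 1 orientation, moderated over genes. Relative ratios of usable features were centred on the median usable gene, a choice made after seeing the data. Those over all features were centred on the median of all genes. In each complex the named genes are up to 4 with the smallest unadjusted p and up to 3 usable ones farthest from the median gene, plus the Sdh genes, isoforms of 1 subunit, Atp5if1 and saturated genes. Genes named as exceptions are outside it. Alternatives changed direction, dye term, centring, scale, features, weights, moderation, grid position and replicates.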

Additional observations from a re-analysis of the deposited data

Results flagged for a closer look

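Of 41 sets of 4 array values examined, 2 had an array far from the other 3, where chance gives about 1 in 20. For the median of complex V over all features, relative to the median gene and read as ApoE over control, the gap between replicate 1 and the nearest array was 0.84 of the whole range. As deposited, those medians were -0.42, -0.02, 0.11 and -0.05 on replicates 1 to 4. For Cox7a2l, over both features and uncentred, the deposited ratios were -0.08, 0.16, -0.33 and -1.14. After replicates 2 and 4 were turned to ApoE over control, replicate 4 stood off the nearest array by 0.834 of the range. Both lie just above Dixon's critical value for 4 samples.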

How the results depend on the processing

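All results below count genes or features past an adjusted p of 0.05 in limma or give medians of a complex. The count of subunit genes was 0 under every alternative run. At most 2 of 86 had an unadjusted p under 0.05, without replicate 4 and without the dye term, where 455 of all 14871 genes did. Over all features, 1 was called without replicate 1, and it is no feature of a subunit, against 0 with all arrays, in a fit with 1 residual degree of freedom. Genes called were 0 throughout, with 327 to 1374 at an unadjusted p under 0.05 when a replicate was left out with the dye term kept, the latter without replicate 2, against 383 with all arrays. Medians relative to the median gene over all features, for ApoE over control, were -0.05 (-0.14 to 0.14 with a replicate left out) for complex I, -0.20 (-0.36 to -0.04) for II, -0.04 (-0.12 to 0.10) for III, -0.01 (-0.05 to 0.05) for IV and -0.06 (-0.12 to 0.06) for V. With dim and saturated features left out they were 0.02, 0.05, 0.05, 0.01 and 0.01, a change of sign smaller than the spread over arrays. Those values were centred on the median usable gene, and the medians over all features on the median of all genes. With only the centre of the latter moved to the usable genes, they were -0.03, -0.18, -0.02, 0.01 and -0.04. Of 36 named genes, 6 changed sign when arrays were centred, and 7 to 13 when a replicate was left out. Each ratio is already the difference within a pair, so the fit itself is paired and no replicate block was added. Of the 139 features, 48 are limited by being dim and 9 by being saturated, as defined by shared values.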
